A study of Mus musculus with 24 samples.

Results

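The genes described here are 9 cathepsins, Ctsa, Ctsb, Ctsc, Ctsd, Ctsh, Ctsk, Ctsl, Ctss and Ctsz, together with Cst3, which encodes cystatin C. They were chosen by name, with earlier results of these data known. They are 10 of the 43430 gene IDs in the deposited table of counts, and all 10 passed the filter on low counts. RNA-seq was run on alveolar macrophages of C57BL/6J mice, sorted by Siglec F, in 24 libraries that form 6 groups of 4. The young mice were 8 to 12 weeks old and the old mice over 18 months old, per the labels, whereas the series text speaks of 2 and 18 months. Siglec F-high macrophages came from naive young, naive old, asbestos-treated young and asbestos-treated old mice, and Siglec F-low macrophages from the young and old asbestos-treated mice, 28 days after asbestos. The series text calls the sorted cells tissue-resident and monocyte-derived, but the sample labels name them only by Siglec F, and the label names are used here. Siglec F is a surface lectin carried by alveolar macrophages, and asbestos is a mineral fibre that scars the lung. Nothing in the sources says whether the libraries of a group came from separate mice, so the p-values measure the spread between these libraries, which may be technical.

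Cathepsins are proteases of the lysosome, made as inactive precursors that are delivered by mannose 6-phosphate receptors and trimmed to the active enzyme in the acid compartment. Ctsb, Ctsc, Ctsh, Ctsk, Ctsl, Ctss and Ctsz encode cysteine proteases, Ctsd an aspartic protease and Ctsa a serine carboxypeptidase. Cystatin C is a secreted protein that binds and blocks cysteine cathepsins. Macrophages use these enzymes to break down engulfed material and to process antigen, and can release some of them, so that they also act on the matrix around the cell.

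Gene positions are those of GENCODE M21 (GRCm38), and the submitters' processing notes name the build mm10. Levels are given as CPM, a gene's counts relative to the size of its library, scaled between libraries with the TMM method, and differences as log2 fold changes with their standard error (SE). Calls rest on edgeR's quasi-likelihood test with an adjusted p below 0.05. A pair of libraries stood apart from all others and touch most results below, so values are given with all 24 libraries and with the other 22. In young asbestos Siglec F-high replicate 3, the 11889517 counts fell on 12528 genes, against 17069 to 18820 genes in the other 22, and its correlation with the rest of its group was 0.851, against 0.973 or more in the 22. The other was old asbestos Siglec F-high replicate 3, with 3894699 counts, of which 41.3% lay on 4 ribosomal RNA-related genes, against at most 0.502% in the 22. Those 22 libraries held 13423080 to 18124526 counts. All 13 genes of an alveolar macrophage marker list were detected in every group. Siglecf ran from 148 to 294 CPM in the Siglec F-low and from 312 to 614 CPM in the Siglec F-high libraries, as the sort sets it.

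Sequence at the start sites of the genes is shown first, as a description. Its part in the differences below was not tested. RefSeq start-site windows (GRCm38.p6, 250 bases before the start) were found for 8 of the 10 genes, all but Ctsb and Ctsh, and Ctsa has 2 of them. The letters CACGTG, the core bound by lysosomal regulators such as TFEB, were looked for on both strands. They occurred in the windows of Ctsa, Ctsd and Ctsl, 3 of 9, and in 6.02% of 32851 windows of the same length. The longer TCACGTG, which overlaps it, was in windows of 2 of the genes and in 3.13% of all windows. Neither TCATGTG, a form bound by MITF and TFEC, nor the AP-1 form TGANTCA was in a window of these genes, against 3.25% and 6.75% of all windows. GAGGAAGT, a form bound by PU.1, was in the Ctsc window and in 2.44% of all windows. A match describes letters, not binding. The 4 stretches of 30 bases below carry the CACGTG matches, in capitals with any T before or A after that completes TCACGTG on either strand.
Ctsa, second start, chr2:164833743-164833772, plus strand: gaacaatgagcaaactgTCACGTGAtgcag
Ctsd, far match, chr7:142388048-142388077, minus strand: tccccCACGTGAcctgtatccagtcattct
Ctsd, near match, chr7:142387908-142387937, minus strand: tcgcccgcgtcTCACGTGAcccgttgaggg
Ctsl, chr13:64370739-64370768, minus strand: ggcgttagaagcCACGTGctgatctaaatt
In Ctsd the near match began 98 bases before the start and in Ctsa 12 bases before it. These distances are from the RefSeq starts, and GENCODE M21 has others. There the Ctsl window and the second Ctsa window lie wholly inside their own genes, as do 211 of the 250 bases of the Ctsd window, the near Ctsd match among them, and 180 of those of the Cst3 window. Ctsk had none of the 5 forms in its window, shown here whole because it held the largest single difference of the set.
Ctsk, chr3:95498960-95499209, plus strand: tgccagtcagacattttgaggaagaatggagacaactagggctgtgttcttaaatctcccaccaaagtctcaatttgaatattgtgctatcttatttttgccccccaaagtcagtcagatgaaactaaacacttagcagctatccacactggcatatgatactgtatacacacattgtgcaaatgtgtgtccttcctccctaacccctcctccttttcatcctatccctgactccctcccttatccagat
Its GC content was 43.2%, below the median of 52.4% over all windows.

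Between the sorts, Ctsb, Ctsk and Ctsl were higher in Siglec F-low than in Siglec F-high macrophages after asbestos, at both ages. With 24 libraries these 3 of the 10 genes rose in young mice, where 3.41% of the 13467 genes tested rose, and the same 3 rose in old mice, where 2.64% rose. With 22 libraries 8 of the 10 rose in young mice, all but Ctsc and Ctsh, against 7.42% of 13629 genes, and 4 rose in old mice, Ctsb, Ctsk, Ctsl and Ctsz, against 6.30%. The median difference of the 10 genes was 0.37 in young and 0.42 in old mice on the log2 scale with 24 libraries, and 0.57 and 0.21 with 22, while the median over all genes tested lay between -0.01 and 0.00. The library ranges did not overlap, Siglec F-low above, for 4 members in young and 6 in old mice (8.42% and 9.39% of all genes), and with 22 libraries for 8 and 5 members (12.9% and 11.5%). In bulk libraries such as these, fewer cells of a type and less RNA per cell cannot be told apart. The test of whether the sort difference itself differed with age called no member in either fit. With 24 libraries 6 of the 10 members lay above 0, at a median of 0.06 against -0.04 over all genes. With 22 libraries 0 did, at a median of -0.18 against -0.01, and 1 member had an unadjusted p below 0.05 (edgeR). Over all genes edgeR called 0 (0.00%) with 24 libraries, although 650 had an unadjusted p below 0.05, and 2 (0.0147%) with 22.

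After asbestos, within the Siglec F-high sort, Ctsk was higher than in naive mice at both ages. It was the 1 member called with 24 libraries in young mice, where 1.43% of all genes rose, and in old mice, where 0.713% rose. With 22 libraries the members that rose were Ctsb, Ctsd, Ctsk and Ctsl in young mice, against 3.48% of all genes, and those 4 and Ctsa in old mice, against 3.16%. The median member difference was 0.39 in young and 0.16 in old mice with 24 libraries and 0.25 and 0.32 with 22, against -0.01 to 0.01 over all genes. Asbestos libraries lay wholly above naive libraries for 3 members in young and 0 in old mice (3.71% and 3.86% of all genes), and with 22 libraries for 5 and 7 members (9.24% and 9.58%). The interaction of age and asbestos called no member. Its median over the members was -0.36 with 24 libraries and 0.09 with 22, against 0.03 and 0.00 over all genes. Of all genes edgeR called 0 (0.00%) with 24 libraries, although 1050 had an unadjusted p below 0.05, and 2 (0.0147%) with 22, neither of them a member. The young asbestos Siglec F-high libraries stand in the asbestos, the sort and the age comparison, and the old ones likewise, so these results are not independent of each other.

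With age, no member was called in naive Siglec F-high, asbestos Siglec F-high or asbestos Siglec F-low macrophages with 24 libraries, where 1.68%, 2.89% and 0.869% of all genes rose. With 22 libraries, Ctsb, Ctsd and Ctsl rose in old asbestos Siglec F-high macrophages, against 4.84% of all genes, and none rose in the other two comparisons, against 5.11% and 3.80%. The median member difference in the 3 comparisons was 0.14, -0.004 and 0.01 with 24 libraries and 0.15, 0.23 and 0.01 with 22, against -0.01 to 0.04 over all genes. Unadjusted p-values under 0.05 numbered 1, 1 and 0 among the 10 members with 24 libraries, and 4, 6 and 2 with 22. With 22 libraries, old libraries lay wholly above young ones for 2, 6 and 1 members in the 3 comparisons (7.22%, 15.5% and 6.64% of all genes). With 24 they did so for 1 member in naive macrophages, Ctsk, as for 943 of the 13467 genes tested, and for 0 members in asbestos Siglec F-high and 1 in Siglec F-low macrophages (5.64% and 6.33% of all genes).

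Markers of macrophage subsets and of other cells differed between the groups as well. The Siglec F-low libraries held more C1qa, a complement gene of recruited and tissue macrophages, at 33.0 to 65.0 CPM against 1.63 to 7.26 CPM in the Siglec F-high libraries. The 12 monocyte and recruited macrophage markers summed to 1131 to 1617 CPM in Siglec F-low and to 552 to 1258 CPM in Siglec F-high libraries, with none at 0 in all libraries of a group. Of the 13 resident alveolar macrophage markers, Fabp5 and Chil3 rose between the sorts at both ages with 24 libraries, while Cidec and Siglecf fell at both ages and Krt79 in young mice, with list medians of -0.03 in young and -0.08 in old mice. They summed to 40194 to 70509 CPM in Siglec F-low and to 18518 to 44104 CPM in Siglec F-high libraries, and most of the sum in every Siglec F-low library was Chil3, at means of 36739 CPM in young and 53837 CPM in old Siglec F-low and of 11748 to 27406 CPM in the Siglec F-high groups. Epcam, an epithelial adhesion gene, fell between the sorts at both ages, with means of 24.9 and 27.7 CPM in young and old Siglec F-low against 91.5 and 76.1 CPM in asbestos Siglec F-high libraries. Cdh1, of the same epithelial list, went the other way, with means of 159 and 227 CPM in young and old Siglec F-low against 133 and 182 CPM in asbestos Siglec F-high libraries. Sftpc, Sftpb, Scgb1a1 and Krt18 averaged at most 17.1 CPM in any group. The 6 epithelial markers together summed to 166 to 328 CPM in Siglec F-low and to 173 to 385 CPM in Siglec F-high libraries. The 6 neutrophil markers summed to 74.0 to 97.0 CPM in Siglec F-low and to 30.4 to 93.5 CPM in Siglec F-high libraries, or at most 75.6 CPM without the outlying ones, and Ly6g was at 0 in every library of 5 groups. With 24 libraries 0 of the 5 neutrophil markers tested were called between the sorts, and with 22 libraries 3 rose in young and 1 in old mice. With asbestos, the 6 B cell markers were lower, at 10.6 to 21.9 CPM in all asbestos libraries against 22.9 to 50.5 CPM in naive ones. The part of these differences in these results was not tested.

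**Figure D1:**
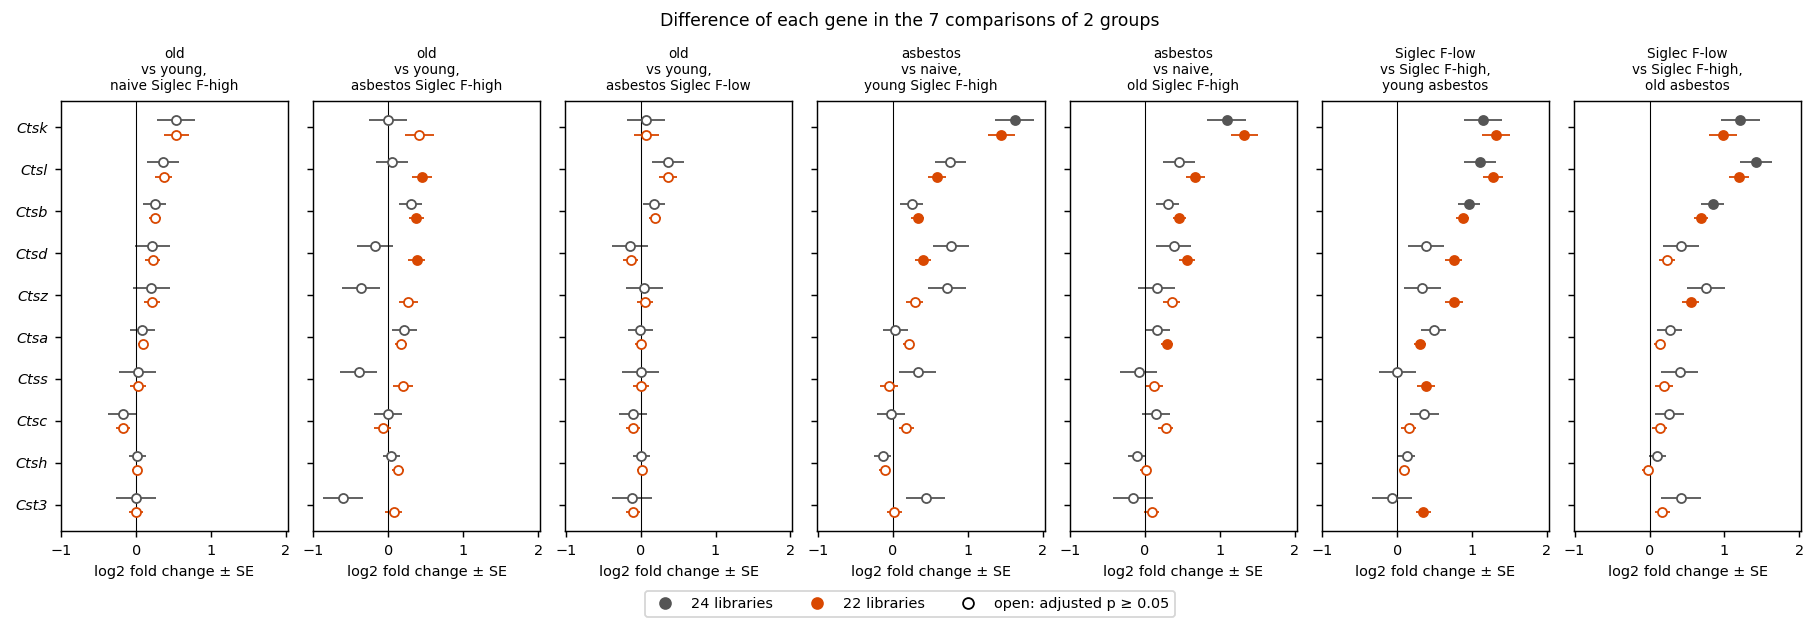
Log2 fold change with its standard error (horizontal axis) of each gene (rows) in the 7 comparisons of 2 groups, with all 24 libraries (grey) and with 22 (orange). Filled points passed an edgeR adjusted p of 0.05. Ctsk, Ctsl and Ctsb are filled in grey in both comparisons of the sorts, and Ctsk alone in both asbestos comparisons.

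Ctsk (ENSMUSG00000028111, chr3:95499256-95509362, plus strand) encodes the collagen- and elastin-degrading protease best known from osteoclasts. Its level in young naive Siglec F-high libraries was 441, 448, 320 and 328 CPM, and in old naive ones 452, 507, 587 and 680 CPM. After asbestos the Siglec F-high libraries held 1329, 821, 1596 and 1004 CPM in young and 1328, 1191, 559 and 1652 CPM in old mice. The Siglec F-low libraries held 3025, 2712, 2470 and 2270 CPM in young and 2855, 2120, 2446 and 3567 CPM in old mice. Every Siglec F-low library lay above every Siglec F-high library, and all asbestos Siglec F-high libraries except the outlying old one lay above all naive libraries.

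In young mice Ctsk was 3.09-fold higher after asbestos, a log2 difference of 1.63 ± 0.26 (SE, edgeR adjusted p = 0.00112), and 1.45 ± 0.18 with 22 libraries (adjusted p = 3.37e-05). This call held with each of the 24 libraries left out in turn, but not when the fit held the compared groups alone (adjusted p = 0.0900). In old mice the difference was 1.09 ± 0.26 (edgeR adjusted p = 0.0463), and 1.32 ± 0.18 with 22 libraries (adjusted p = 0.000109). The old call held in 4 of the 24 fits that left out 1 library, those without young asbestos Siglec F-high replicate 2 or 3, old asbestos Siglec F-high replicate 3 or old asbestos Siglec F-low replicate 4. It was lost without any one of the other 20, at differences of 0.88 to 1.20 and adjusted p-values of 0.0535 to 0.231. It was also lost with the compared groups alone (edgeR adjusted p = 0.175) and with the replicate number as an additive block (adjusted p = 0.0775).
The sort difference of Ctsk was 1.14 ± 0.26 in young mice (edgeR adjusted p = 0.00869) and 1.21 ± 0.26 in old mice (adjusted p = 0.00686), and 1.32 ± 0.19 and 0.98 ± 0.19 with 22 libraries. The young call was lost with the compared groups alone (adjusted p = 0.0581). Old naive libraries lay above young naive ones without overlap, at a log2 difference of 0.53 ± 0.25 that was not called (edgeR adjusted p = 0.560, and 0.0510 with 22 libraries).

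Markers of other cells that use Ctsk were read beside it. Of 6 fibroblast markers, Lum was at 0 in every library of 5 groups, and the 6 summed to between 0 and 11.7 CPM in any library, against 320 CPM or more for Ctsk. Of 5 osteoclast and multinucleated macrophage markers, Acp5, the tartrate-resistant acid phosphatase, ran from 154 to 217 CPM in young naive, from 238 to 393 in young asbestos Siglec F-high and from 530 to 673 in young Siglec F-low libraries. Calcr, the calcitonin receptor, was at 0 in every library of 5 groups. Dcstamp and Ocstamp, which serve cell fusion, reached at most 18.0 and 15.3 CPM but rose over the same groups. Dcstamp averaged 0.293, 1.56 and 4.15 CPM in young naive, asbestos Siglec F-high and Siglec F-low libraries, and 0.473, 4.22 and 10.4 CPM in old ones. For Ocstamp the means were 0.0914, 0.461 and 2.35 CPM in young and 0.416, 2.12 and 11.8 CPM in old libraries. Nfatc1, the remaining marker, went the other way. It averaged 131 CPM in young naive and 105 CPM in young Siglec F-low libraries, and 130 and 100 CPM in the old ones. The 5 together summed to 293 to 340 CPM in young naive libraries and to 642 to 779 CPM in young Siglec F-low libraries, a rise carried mostly by Acp5.

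**Figure D2:**
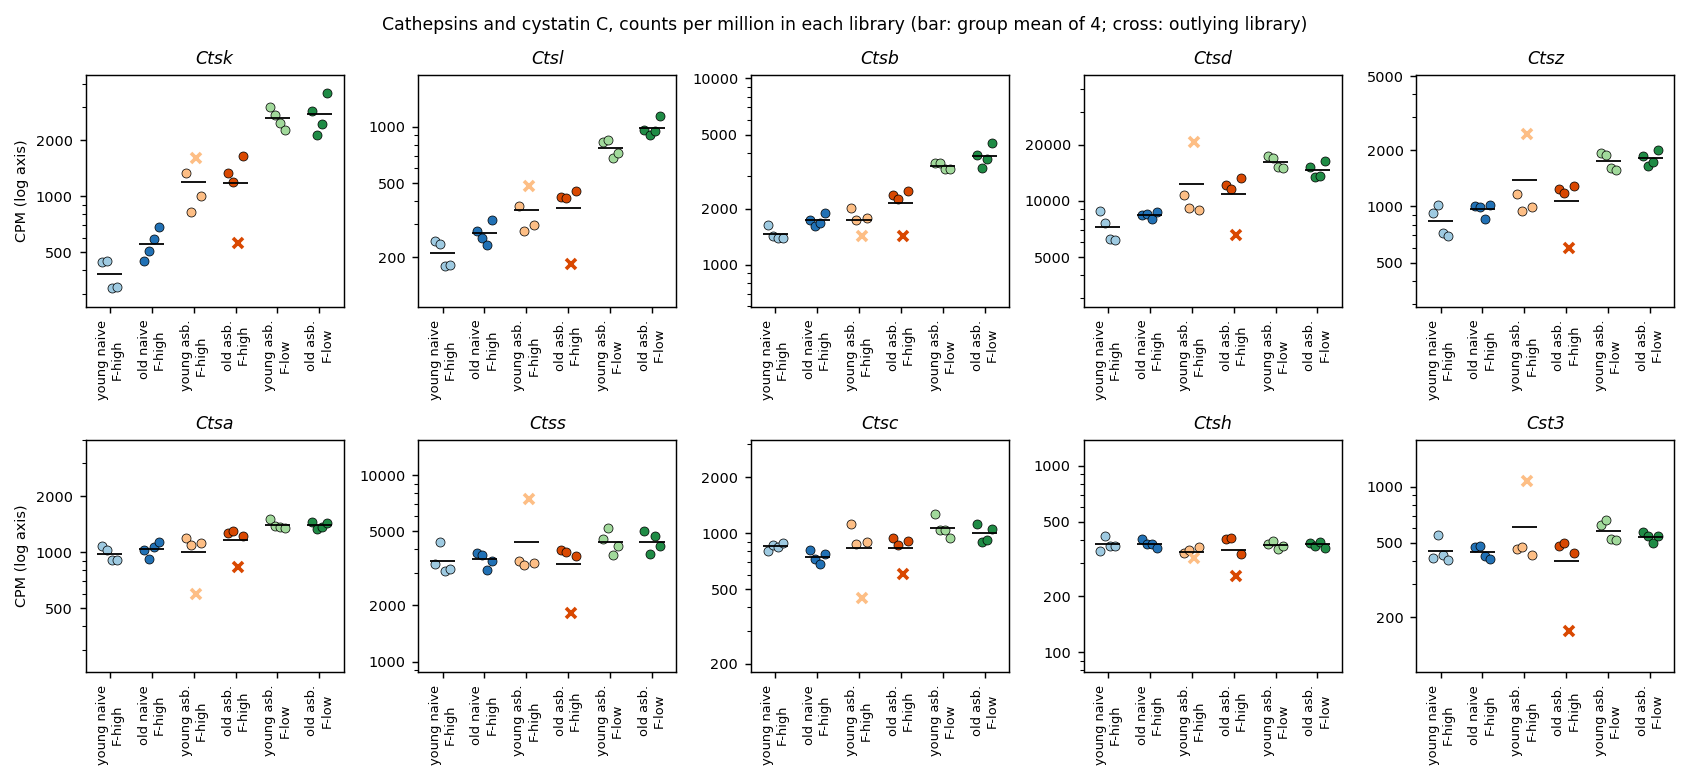
CPM (log axis, each panel with its own range) of the 10 genes in each library by group, with a bar at the group mean of 4 and a cross for the 2 libraries that stood apart. Ctsk, Ctsl and Ctsb step up to the Siglec F-low groups, Ctsh stays between 256 and 420 CPM in every group, and the crosses lie outside their groups in most panels.

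Ctsl (ENSMUSG00000021477, chr13:64359337-64370890, minus strand) encodes a lysosomal endopeptidase. Its level was 244, 236, 180 and 182 CPM in young naive and 275, 254, 234 and 318 CPM in old naive libraries. Asbestos Siglec F-high libraries held 378, 276, 482 and 298 CPM in young and 422, 415, 184 and 454 CPM in old mice, and Siglec F-low libraries 828, 846, 680 and 728 CPM in young and 959, 904, 952 and 1147 CPM in old mice. The Siglec F-low ranges lay apart from all others and from each other, the old above the young. The sort difference was 1.10 ± 0.21 in young (edgeR adjusted p = 0.00243) and 1.42 ± 0.21 in old mice (adjusted p = 0.000282), and 1.28 ± 0.13 and 1.20 ± 0.13 with 22 libraries. The asbestos difference was called with 22 libraries, at 0.59 ± 0.13 in young (edgeR adjusted p = 0.00667) and 0.67 ± 0.13 in old mice (adjusted p = 0.00257), and was 0.77 ± 0.21 and 0.45 ± 0.21, not called, with 24. The age difference between Siglec F-low groups, 0.36 ± 0.21, was not called despite the separate ranges (edgeR adjusted p = 0.810, and 0.0572 with 22 libraries). In asbestos Siglec F-high macrophages it was 0.05 ± 0.21 with 24 libraries and 0.45 ± 0.14 with 22, the latter called (edgeR adjusted p = 0.0446).

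Ctsb (ENSMUSG00000021939, chr14:63122462-63145923, plus strand) encodes a protease that acts both within chains and at their carboxyl end. Its level was 1628, 1433, 1394 and 1400 CPM in young naive and 1740, 1626, 1686 and 1893 CPM in old naive libraries. Asbestos Siglec F-high libraries held 2018, 1739, 1433 and 1782 CPM in young and 2379, 2245, 1428 and 2506 CPM in old mice, and Siglec F-low libraries 3499, 3508, 3251 and 3283 CPM in young and 3888, 3311, 3677 and 4479 CPM in old mice. All 8 Siglec F-low libraries lay above all 16 Siglec F-high libraries, while the 2 Siglec F-low groups overlapped. The sort difference was 0.96 ± 0.15 in young (edgeR adjusted p = 0.000347) and 0.84 ± 0.15 in old mice (adjusted p = 0.00146), or 1.94-fold and 1.79-fold, and 0.87 ± 0.09 and 0.69 ± 0.09 with 22 libraries. The sort calls of Ctsb and Ctsl held in both ages in each of the 35 alternative fits, as did that of Ctsk in old mice. With 22 libraries Ctsb also rose after asbestos, by 0.33 ± 0.09 in young and 0.46 ± 0.09 in old mice (edgeR adjusted p = 0.0278 and 0.00314). The same 22 libraries gave a rise with age of 0.38 ± 0.09 in asbestos Siglec F-high macrophages (edgeR adjusted p = 0.0154), against 0.30 ± 0.15, not called, with 24. Part of Ctsb overlaps Fdft1 on the other strand in GENCODE M21, and the strand setting of the counting is not given in the sources used here, so reads of the shared stretch cannot be assigned.

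Ctss (ENSMUSG00000038642, chr3:95526786-95556403, plus strand) encodes the protease that trims the invariant chain in antigen-presenting cells and works at neutral pH as well. Its level was 3329, 4386, 3057 and 3145 CPM in young naive and 3836, 3726, 3101 and 3474 CPM in old naive libraries. Asbestos Siglec F-high libraries held 3455, 3286, 7436 and 3387 CPM in young and 3945, 3885, 1817 and 3673 CPM in old mice, and Siglec F-low libraries 4518, 5174, 3738 and 4147 CPM in young and 4999, 3753, 4693 and 4152 CPM in old mice. The outlying libraries held the highest and the lowest value of all 24, and neighbouring groups in the order of their means overlapped. The young sort difference was 0.00 ± 0.25 with 24 libraries and 0.38 ± 0.12 with 22, the only comparison in which Ctss was called in either fit (edgeR adjusted p = 0.0413). A pseudogene, Hmgb1-ps5, overlaps Ctss on the same strand.

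Among the cysteine exopeptidases, Ctsz (ENSMUSG00000016256, chr2:174427493-174439039, minus strand) encodes a carboxypeptidase. Its level was 928, 1016, 722 and 697 CPM in young naive and 1003, 992, 859 and 1015 CPM in old naive libraries, 1163, 945, 2455 and 991 CPM in young and 1243, 1178, 600.3 and 1280 CPM in old asbestos Siglec F-high libraries. Siglec F-low libraries held 1938, 1899, 1603 and 1566 CPM in young and 1859, 1652, 1724 and 2014 CPM in old mice. Without the outlying young library, the young Siglec F-low libraries lay above every Siglec F-high one. The sort difference was 0.34 ± 0.25 in young and 0.75 ± 0.25 in old mice with 24 libraries, neither called, and 0.76 ± 0.12 and 0.55 ± 0.12 with 22, both called (edgeR adjusted p = 0.000114 and 0.00269). Nelfcd overlaps Ctsz on the other strand.

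Ctsh (ENSMUSG00000032359, chr9:90054152-90076089, plus strand) encodes an aminopeptidase and was the member that varied least. Group means ran from 344 ± 20.3 CPM in young asbestos Siglec F-high to 381 ± 17.1 CPM in old naive libraries (SD, n = 4), and all neighbouring groups in the order of the means overlapped. Its differences ran from -0.14 to 0.13 over the 7 comparisons with 24 libraries and from -0.11 to 0.13 with 22, none of them called. Ctsc (ENSMUSG00000030560, chr7:88278085-88310888, plus strand) encodes a dipeptidyl peptidase that activates granule serine proteases of other leukocytes. Its mean was lowest in old naive libraries, at 749 ± 59.5 CPM, and highest in young Siglec F-low libraries, at 1072 ± 141 CPM (SD, n = 4). No comparison called it in either fit, and the largest difference was 0.36 ± 0.19 between the sorts in young mice (edgeR adjusted p = 0.278), which was 0.15 ± 0.10 with 22 libraries. The transcript Gm26522 overlaps Ctsc on the other strand.

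Ctsd (ENSMUSG00000007891, chr7:142375911-142388038, minus strand), the aspartic protease, had the highest level of the set. It ran at 8828, 7637, 6281 and 6185 CPM in young naive and 8407, 8526, 7962 and 8752 CPM in old naive libraries. Asbestos Siglec F-high libraries held 10735, 9134, 20794 and 8956 CPM in young and 12237, 11662, 6573 and 13326 CPM in old mice, and Siglec F-low libraries 17367, 17010, 15286 and 15044 CPM in young and 15260, 13361, 13634 and 16469 CPM in old mice. Asbestos libraries lay above naive ones in young mice, and in old mice also once the outlying library was left out. With 24 libraries no comparison called Ctsd. With 22 it rose after asbestos by 0.41 ± 0.11 in young and 0.56 ± 0.11 in old mice (edgeR adjusted p = 0.0262 and 0.00274), and between the sorts by 0.75 ± 0.11 in young mice (adjusted p = 5.22e-05). In old mice the sort difference was 0.24 ± 0.11 with 22 libraries and was not called (edgeR adjusted p = 0.178). The age difference in asbestos Siglec F-high macrophages turned from -0.18 ± 0.24 with 24 libraries to 0.38 ± 0.11 with 22 (edgeR adjusted p = 0.654 and 0.0445).

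Ctsa (ENSMUSG00000017760, chr2:164832873-164841032, plus strand) encodes the carboxypeptidase that also holds neuraminidase and beta-galactosidase together in the lysosome. Group means were 976 ± 85.7 CPM in young naive, 1035 ± 92.8 in old naive, 1399 ± 77.7 in young Siglec F-low and 1395 ± 56.9 in old Siglec F-low libraries (SD, n = 4). Asbestos Siglec F-high libraries held 1189, 1091, 600.2 and 1118 CPM in young and 1269, 1301, 832 and 1228 CPM in old mice, below every Siglec F-low library. The young sort difference was 0.48 ± 0.17 with 24 libraries (edgeR adjusted p = 0.0971) and 0.30 ± 0.08 with 22 (adjusted p = 0.00927), and in old mice it was 0.27 ± 0.17 and 0.13 ± 0.08, not called. Ctsa rose after asbestos in old mice with 22 libraries, by 0.29 ± 0.07 (edgeR adjusted p = 0.0269). Pltp and Neurl2 overlap Ctsa on the other strand.

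Cst3 (ENSMUSG00000027447, chr2:148871722-148875692, minus strand), the inhibitor, held 413, 552, 432 and 403 CPM in young naive and 474, 484, 425 and 412 CPM in old naive libraries. Asbestos Siglec F-high libraries held 464, 475, 1067 and 431 CPM in young and 482, 502, 169 and 443 CPM in old mice, and Siglec F-low libraries 625, 659, 525 and 518 CPM in young and 568, 542, 498 and 546 CPM in old mice. Leaving aside the outlying libraries, the Siglec F-high groups all lay between 403 and 552 CPM. The young sort difference was -0.07 ± 0.27 with 24 libraries (edgeR adjusted p = 0.915) and 0.35 ± 0.10 with 22 (adjusted p = 0.0262), and 0.35, not called, without young asbestos Siglec F-high replicate 3 alone. In no other comparison was Cst3 called in either fit.

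Levels of different genes were compared per kilobase of their principal transcript, over the 22 libraries. Ctsd led in every group, at 3400 ± 589 CPM per kb in young naive and 7605 ± 556 in young Siglec F-low libraries (SD, n = 4), and Ctss came next in every group, at 2568 ± 454 and 3243 ± 450. Ctsk was the eighth of the 10 in young naive libraries, at 254 ± 46.2 CPM per kb, and the third in both Siglec F-low groups, at 1732 ± 215 in young and 1817 ± 413 in old mice. With the length of all annotated exons in place of the principal transcript, Ctsk ranked 5 in young naive and 3 in Siglec F-low libraries, so its first rank depends on the lengths used. Ctsl was the lowest of the 10 in young naive libraries, at 107 ± 17.3 CPM per kb, and stood at 502 ± 54.2 in old Siglec F-low libraries. Of the summed length-scaled level of the 10 genes, Ctsk made up 2.96% in young naive, 10.4% in young Siglec F-low and 11.2% in old Siglec F-low libraries, while Ctss made up 29.9%, 19.5% and 20.1%. As a share of all counts, the 10 genes together took 1.65 to 2.00% in young naive and 3.15 to 3.48% in young Siglec F-low libraries.

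**Figure D3:**
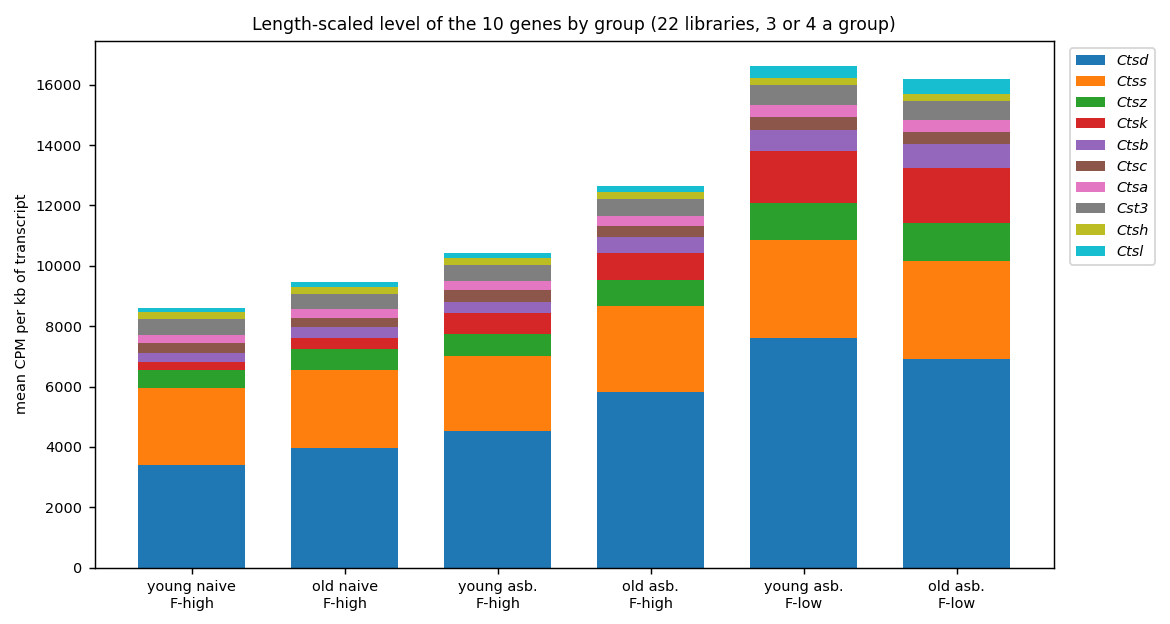
Mean CPM per kilobase of principal transcript (vertical axis) of the 10 genes, stacked, by group, over 22 libraries. Ctsd and Ctss form most of each bar, and the Ctsk band widens from 254 in young naive to 1732 in young Siglec F-low libraries.

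Ratios within a library do not depend on the scaling between libraries. The length-scaled ratio of Ctsk to Ctsh was 0.919 to 1.36 in young naive, 2.48 to 5.37 in young asbestos Siglec F-high and 6.57 to 8.48 in young Siglec F-low libraries, 3 ranges that did not overlap. In old mice the ratio was 1.20 to 2.02, 2.34 to 5.26 and 6.09 to 10.5 in the same order. Against the inhibitor, the ratio of Ctsk to Cst3 had a median of 0.462 in young naive and 2.59 in young Siglec F-low libraries, and that of Ctsb to Cst3 a median of 0.608 and 1.07. The ratio of Ctss to Cst3 had medians of 4.57 to 5.23 over the 6 groups, and the outlying libraries stood at 4.42 and 6.82.

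Over the 22 libraries, log2 CPM of Ctsk, Ctsl, Ctsb, Ctsd, Ctsz and Ctsa correlated with one another at Pearson r of 0.94 to 0.99, the highest being Ctsb with Ctsl at 0.99. Ctsh correlated with the other 9 at -0.12 to 0.48, and Ctss with Cst3 at 0.86. These values describe libraries that share 6 groups and carry no test. They moved with the outlying libraries: Ctsa with Ctsd was 0.96 over 22 and 0.44 over 24 libraries. Among genes outside the set, the pattern most like Ctsk was that of Wfdc17 (r = 0.99), then Cd200 and Lgmn, and that most like Ctsl was Lgmn (0.99). Psap was nearest to Ctsb (0.99), Cd68 to Ctsa (0.98), Rragc to Ctsd (0.98), Cstb to Ctsz (0.99), Timm13 to Cst3 (0.95), Tfg to Ctsc (0.91) and Sdf4 to Ctss (0.90). No gene came nearer to Ctsh than Grcc10 (0.74). Over all 24 libraries Tfg with Ctsc was at -0.17, Grcc10 with Ctsh at 0.33, Rragc with Ctsd at 0.77 and Timm13 with Cst3 at 0.84, and the nearest gene of each of the other 6 was at 0.94 or more.

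**Figure D4:**
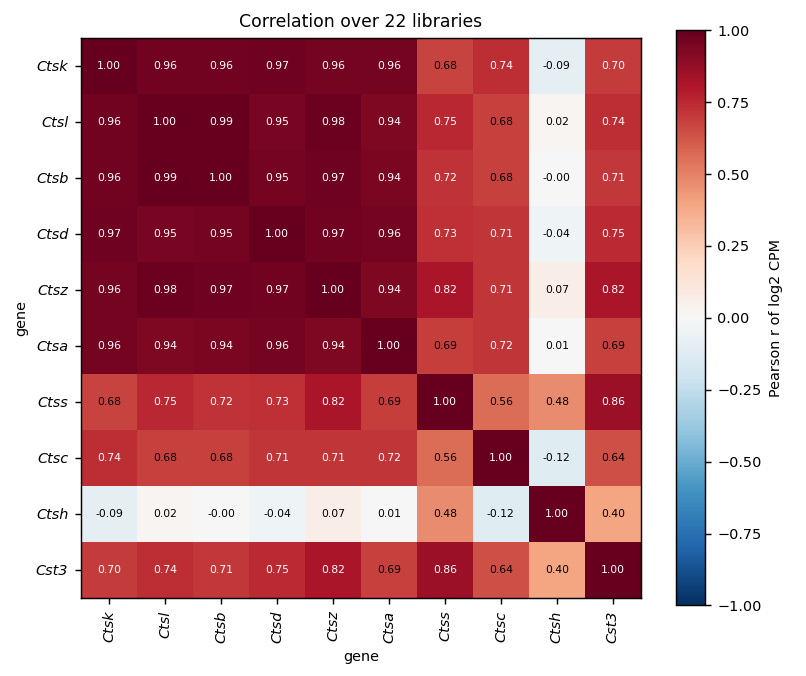
Pearson correlation of log2 CPM between each pair of the 10 genes (both axes) over 22 libraries, from -1 (blue) to 1 (red). The 6 genes Ctsk, Ctsl, Ctsb, Ctsd, Ctsz and Ctsa form a block at 0.94 and above, and the row of Ctsh lies between -0.12 and 0.48.

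Of 35 other genes of the pathway, 29 were tested with 24 libraries and 30 with 22. Between the sorts with 24 libraries, 5 rose and 0 fell at each age, with medians of 0.16 in young and 0.12 in old mice. Of all genes tested, 3.41% rose and 1.58% fell there in young mice, and 2.64% and 1.66% in old mice. With 22 libraries 11 rose and 1 fell in young mice, against 7.42% and 4.60% of all genes, and 7 rose and 2 fell in old mice, against 6.30% and 5.28%. After asbestos 4 rose in young and 0 in old mice with 24 libraries, where 1.43% and 0.713% of all genes rose, and 7 and 8 rose with 22, where 3.48% and 3.16% did. Of the pathway genes 0 fell after asbestos in either fit, while of all genes 0.475% fell in young and 0.0668% in old mice with 24 libraries, and 1.58% and 0.969% with 22. With age and 24 libraries, 4 rose and 0 fell in naive (1.68% and 0.349% of all genes), 2 rose and 1 fell in asbestos Siglec F-high (2.89% and 1.87%) and 1 rose and 0 fell in Siglec F-low macrophages (0.869% and 0.423%). With 22 libraries the counts were 6 and 0 (5.11% and 2.91%), 4 and 1 (4.84% and 2.47%), and 2 and 2 (3.80% and 3.41%).

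Among the genes that activate and deliver cathepsins, Igf2r encodes the large mannose 6-phosphate receptor. It averaged 3.52 CPM in young naive, 10.8 in old naive, 10.7 in young asbestos and 23.3 in old asbestos Siglec F-high, and 62.3 and 79.0 CPM in young and old Siglec F-low libraries. The sort difference of Igf2r was 2.54 ± 0.29 in young and 1.86 ± 0.29 in old mice, and it was 1.60 ± 0.29 higher after asbestos in young mice (edgeR adjusted p = 5.94e-06, 0.000310 and 0.00386). Its age difference was 1.61 ± 0.29 in naive macrophages and 1.02 ± 0.29 in asbestos Siglec F-high macrophages (edgeR adjusted p = 0.00223 and 0.0436), the second 0.81 ± 0.28 and not called with 22 libraries (adjusted p = 0.0836). Lgmn, legumain, an endopeptidase that cuts cathepsin precursors, rose by 1.08 ± 0.23 after asbestos in young mice and by 1.08 ± 0.23 between the sorts in old mice (edgeR adjusted p = 0.0123 and 0.00641). With 22 libraries Lgmn rose after asbestos and between the sorts at both ages, by 0.75 to 1.07. M6pr, the other mannose 6-phosphate receptor, had group means of 406 to 463 CPM and was not called in either fit. Sort1, of the same list, fell between the sorts at both ages with 22 libraries. Without the outlying libraries its means were 1549 and 1500 CPM in young and old asbestos Siglec F-high and 1305 and 1177 CPM in Siglec F-low libraries.

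Psap, the saposin precursor, and Dpp7, a lysosomal dipeptidyl peptidase, rose between the sorts at both ages, Psap by 0.84 ± 0.17 and 0.67 ± 0.17 and Dpp7 by 0.58 ± 0.13 and 0.49 ± 0.13 in young and old mice. Cd63, a lysosomal membrane protein, rose by 1.19 ± 0.29 between the sorts in young mice, by 1.89 ± 0.30 after asbestos in young mice and by 1.43 ± 0.29 with age in naive macrophages. With 22 libraries Cd63 also rose between the old sorts, after asbestos in old mice and with age in asbestos Siglec F-high macrophages. Cd74, the invariant chain that Ctss trims, was higher in old than in young mice in all 3 age comparisons, by 2.26 ± 0.25 in naive, 1.69 ± 0.24 in asbestos Siglec F-high and 1.51 ± 0.24 in Siglec F-low macrophages (edgeR adjusted p = 3.65e-06, 0.000175 and 0.00130). Its libraries ran from 619 to 1801 CPM in young naive and from 5332 to 7246 CPM in old naive mice. Ctss showed age differences of 0.02, -0.40 and 0.00 in the same 3 comparisons with 24 libraries, none called. Without the outlying libraries the asbestos Siglec F-high means of Ctss were 3376 CPM in young and 3835 CPM in old mice, the old above the young.

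Of the transcription factors of lysosomal genes, Tfec rose by 0.82 ± 0.19 after asbestos in young mice (edgeR adjusted p = 0.0242) and fell by 0.78 ± 0.19 with age in asbestos Siglec F-high macrophages (adjusted p = 0.0219). The latter was -0.37 ± 0.13 and not called with 22 libraries. With 22 libraries Mitf fell with age in asbestos Siglec F-high and Tfec in Siglec F-low macrophages, while Tfe3 rose with age in naive ones. In that fit Tfec and Mitf rose after asbestos in young mice. Of 9 other cystatins and protease inhibitors, Serpina3g, a serpin at 0.463 to 9.24 CPM, rose between the sorts at both ages and with age in naive macrophages, by 1.26 ± 0.35, 1.80 ± 0.36 and 1.48 ± 0.36. Cstb, the cytosolic inhibitor cystatin B, rose between the sorts at both ages with 22 libraries only, by 0.76 ± 0.13 and 0.51 ± 0.13 (edgeR adjusted p = 0.000438 and 0.0125). Serpinb1a, of the same list, fell between the old sorts with 22 libraries. Its means were 129 CPM in Siglec F-low and, without the outlying library, 183 CPM in asbestos Siglec F-high libraries. None of the 4 other cathepsins tested, Ctse, Ctsf, Ctso and Ctsw, was called in a comparison of 2 groups in either fit, and Ctsg reached at most 0.0579 CPM. Cst7 stood at 0.817 CPM or less and was not tested.

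**Figure D5:**
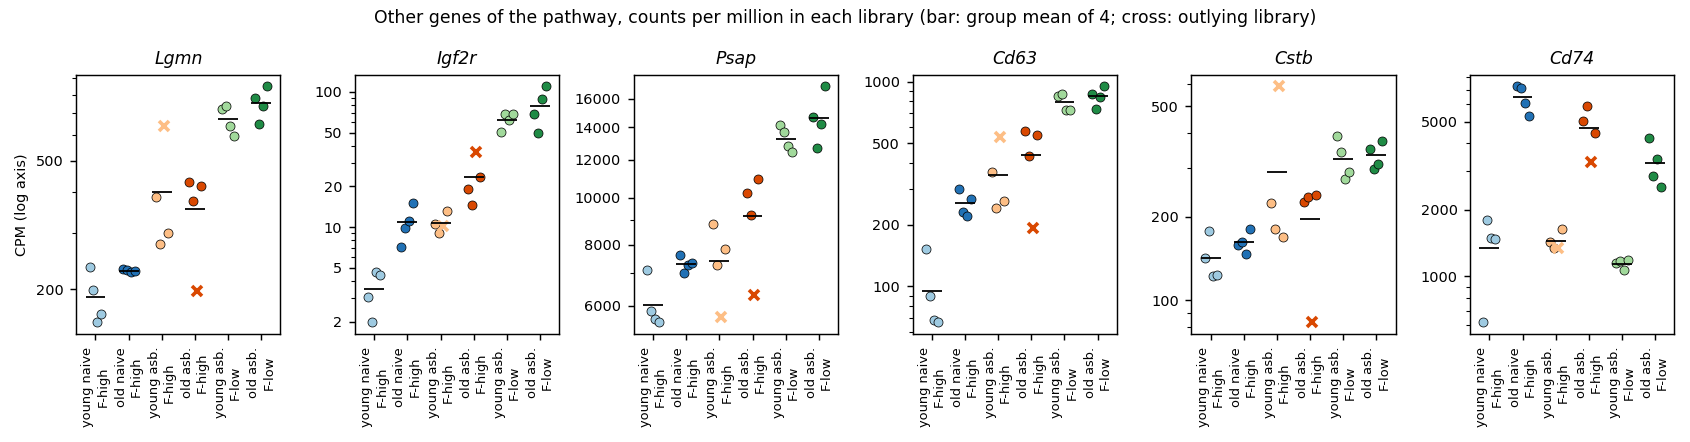
CPM (log axis, each panel with its own range) of 6 other genes of the pathway in each library by group, with a bar at the group mean of 4 and a cross for the 2 libraries that stood apart. Lgmn, Igf2r, Psap and Cd63 step up to the Siglec F-low groups, and Cd74 lies higher in old than in young libraries, from 619 to 1801 in young and from 5332 to 7246 in old naive mice.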

How the data were processed

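The authors deposited 1 table of whole-number counts per Ensembl gene, not scaled, with 43430 gene IDs and 24 columns, each matched to a sample by its title. The labels describe poly(A)-selected NEBNext libraries from 30 ng of total RNA. The submitters' processing notes name bcl2fastq 2.19.1, FastQC, Trimmomatic 0.36, STAR 2.6.0, HTSeq 0.11.2 and mm10, but the annotation and the strand setting are not given in the sources used here. Total counts per library ran from 3894699 to 18124526, and the counts of the 10 genes from 207 (Cst3) to 298241 (Ctsd).

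Genes were filtered with filterByExpr (minimum count 10, minimum total 15), scaled with TMM and fitted with edgeR 4.0.16 (glmQLFit, glmQLFTest) in R 4.3.3, over all 24 libraries with 1 coefficient a group. There were 7 comparisons of 2 groups and 2 interactions, with Benjamini-Hochberg adjustment over all genes tested. The SE is the log2 fold change divided by the square root of F. The fit was checked on simulated counts. Alternatives were a fit of 22 libraries, RLE size factors, DESeq2 1.42.0, limma 3.58.1 voom with sample weights, no filter, the compared groups alone, the replicate number as a block and each library left out in turn. The 10 genes, the lists of other genes and the fit of 22 libraries were chosen with earlier results of these data known. All 10 genes were named in every comparison, and of the lists those called with 24 libraries, plus the genes with the most similar pattern by Pearson r of log2 CPM. Cstb, M6pr, Sort1, Serpinb1a, Mitf, Tfe3, Ctse, Ctsf, Ctsg, Ctso, Ctsw and Cst7 were named beyond that rule, after their values were seen. Lengths are those of the best-supported APPRIS principal transcript.

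No pair of libraries agreed within sampling noise (lowest chi-square per degree of freedom 3.92). Same-numbered libraries deviated together, at a correlation over 0.1 for every number, only between the old asbestos sorts and only with 22 libraries, at 0.150 to 0.205. Between the young asbestos sorts with 22 libraries the correlations were 0.319, 0.0854 and 0.234 for numbers 1, 2 and 4.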

Additional observations from a re-analysis of the deposited data

Results flagged for a closer look

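In each of 60 sets of 4 libraries, 1 for each gene and group, the gap between an extreme library and the rest was set against the range of the group. Of these sets 11 exceeded Dixon's limit for 4 values, where chance gives about 1 in 20, and 9 of the 11 lay in the 2 libraries that stood apart throughout. In young asbestos Siglec F-high replicate 3, Ctsd stood at 20794 CPM against 8956 to 10735 in the rest of its group, Ctss at 7436 against 3286 to 3455, Ctsz at 2455 against 945 to 1163 and Cst3 at 1067 against 431 to 475, all high. Ctsa was low there, at 600.2 CPM against 1091 to 1189. In old asbestos Siglec F-high replicate 3, Ctsa at 832 CPM, Ctsl at 184, Ctss at 1817 and Ctsz at 600.3 were all low, where the rest of the group held at least 1228, 415, 3673 and 1178.

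The other 2 lay in naive libraries. Ctsb was 1628 CPM in young naive replicate 1 against 1394 to 1433 in the rest, and Ctsz was 859 CPM in old naive replicate 3 against 992 to 1015.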

How the results depend on the processing

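Over all alternatives, 3010 values of single genes were compared with those of the 24-library fit: 2892 kept their direction and side of the threshold, 86 became called, 24 lost their call and 8 turned direction. A change of sign where neither fit called the value was counted as kept, which applied to 229 values. The 8 that turned were Ctsd with age in asbestos Siglec F-high macrophages, at 0.38 with 22 libraries, 0.34 with voom, 0.38 with the replicate block and 22 libraries and 0.37 with the compared groups alone and 22 libraries, and Cst3 between the sorts in young mice, at 0.35 with 22 libraries, 0.37 and 0.39 with the additive and nested replicate block and 22 libraries, and 0.35 with the compared groups alone and 22 libraries.

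Counts of the 10 genes called moved by more than 1.5 times as follows, with the share of all genes called, in either direction, in parentheses. With 22 libraries they were 3 (7.32%) for age in asbestos Siglec F-high, 4 (5.06%) and 5 (4.12%) for asbestos in young and old, and 8 (12.0%) for the sorts in young mice, against 0 (4.76%), 1 (1.90%), 1 (0.780%) and 3 (4.99%). With voom they were 5 (13.9%), 3 (14.1%) and 1 (9.54%) for age in naive, asbestos Siglec F-high and Siglec F-low, 6 (14.1%) and 4 (5.10%) for asbestos in young and old, and 6 (17.1%) for the sorts in young mice, and DESeq2 gave 3 (4.41%) for asbestos in young mice. With the compared groups alone they were 1 (6.40%) for age in Siglec F-low and 0 (0.0802%) and 0 (0.413%) for asbestos in young and old mice, and with 22 libraries as well 3 (10.2%) for age in asbestos Siglec F-high, 2 (3.29%) and 5 (3.90%) for asbestos in young and old and 8 (13.4%) for the sorts in young mice. The additive replicate block gave 0 (0.720%) for asbestos in old mice, and with 22 libraries 3 (10.8%), 3 (9.88%) and 1 (9.10%) for the 3 age comparisons, 4 (6.52%) and 5 (5.32%) for asbestos and 8 (17.9%) for the sorts in young mice, where the block nested in age also gave 8 (12.6%). Smaller moves were those between the old sorts from 3 to 4, Ctsz being the fourth, with DESeq2, with voom and in the 4 fits of 22 libraries, and between the young sorts to 4 with DESeq2 and to 2 with the compared groups alone. The nested block, which paired the numbers of the sorts at both ages, gave the same count as the fit without it between the old sorts. That count was 3 with 24 libraries and 4 with 22. The numbers are not said to mark shared mice. Leaving out each library in turn gave 0 to 1 for age in asbestos Siglec F-high, 1 to 3 and 0 to 1 for asbestos in young and old, 3 to 5 and 3 to 4 for the sorts in young and old, and 0 in the other comparisons and interactions. The share of all genes called in those fits ran from 0.284% to 11.6% over the 7 comparisons of 2 groups. The cause of these shifts was not tested. Depth did not limit detection of the 10 genes, whose lowest count in any library was 207.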
